A study of Mus musculus with 4 samples.

Results

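Chemokines are the small secreted proteins that direct the migration of white blood cells, and their genes were compared between primary mouse keratinocytes deficient in the glucose transporter Glut1 and wild-type keratinocytes. The set held every gene measured by a row with exactly 1 gene symbol whose symbol begins with Cxcl, Ccl, Ccr or Cxcr and a number, plus Ppbp, Pf4, Cx3cl1, Cx3cr1, Xcl1 and Xcr1. These were 56 of 30142 genes: 6 neutrophil-attracting CXC chemokine genes, 32 other chemokine genes and 18 receptor genes. Each member had 1 such row.

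RNA came from 2 samples of Glut1-deficient keratinocytes (KO) and 2 samples of wild-type keratinocytes (WT), each measured on 1 Affymetrix MTA-1_0 array. Both genotypes were on the C57BL/6J background, the mice were 1 week old, there were 4 mice per genotype, and the deficiency was restricted to keratinocytes. Cells of both genotypes were grown for 3 days in a serum-free keratinocyte medium with 0.05 mM CaCl2, epidermal growth factor, hydrocortisone, insulin and pituitary extract. They were then replated at 2000000 cells and collected a day later, and each sample joined 2 plates of a genotype taken at random. No stimulus was added to either genotype, and the sources used here give neither the driver of the deletion nor the deleted part of the gene. Because samples pool plates, the p-values measure only the spread between these samples, which may in part be technical.

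Values are the deposited log2 signals, and every difference is KO minus WT on the log2 scale. Slc2a1, which encodes Glut1, had a signal of 12.09 and 12.01 in KO cells, against 13.26 and 13.40 in WT cells (difference -1.28, limma adjusted p = 0.00754, and 0.0508 without KO replicate 1), so its row stayed well above background in KO cells. A floor was set on each array from its background control rows, at 4.87 and 4.63 on the KO arrays and 4.36 and 4.70 on the WT arrays. A gene is called detected where both arrays of at least 1 genotype lay above that floor. Among all 30604 rows tested, 7.22% passed at a limma adjusted p under 0.05, 3.11% lower and 4.11% higher in KO cells, and the median difference was -0.01.

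Chemokines are named by the spacing of their first cysteines (CC, CXC, CX3C and C) and act through G protein-coupled receptors on the cells they attract. The CXC chemokines that draw neutrophils act through the receptors Cxcr2 and Cxcr1, while most CC chemokines draw monocytes, dendritic cells or lymphocytes. Keratinocytes are a source of the neutrophil-attracting group in inflamed skin, where interleukin-1, tumour necrosis factor and interleukin-17 switch these genes on through NF-kB and stabilise their short-lived messages.

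All 6 neutrophil-attracting genes lie with Pf4 in 1 cluster, chr5:90759298-90905938 in GRCm38.p6, in the order Cxcl5, Ppbp, Pf4, Cxcl3, Cxcl15, Cxcl1 and Cxcl2. The 110 bases before the start of 6 of the genes are shown because 5 of these 7 neighbouring genes fell in KO cells while Pf4 and Cxcl15 were at background. They are from RefSeq, GRCm38.p6, plus strand, 5′ to 3′, at Ppbp chr5:90768408-90768517, Pf4 chr5:90772325-90772434, Cxcl3 chr5:90785991-90786100, Cxcl15 chr5:90794424-90794533, Cxcl1 chr5:90891135-90891244 and Cxcl2 chr5:90903789-90903898. Capitals mark matches to the NF-kB motif, searched as GGG, any 3 bases, then TTCC on either strand, and to the TATA box TATAAA, also searched on either strand.
Ppbp: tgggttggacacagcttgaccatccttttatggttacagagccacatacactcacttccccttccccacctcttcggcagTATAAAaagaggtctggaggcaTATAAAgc
Pf4: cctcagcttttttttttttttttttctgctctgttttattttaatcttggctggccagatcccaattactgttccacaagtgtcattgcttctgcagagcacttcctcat
Cxcl3: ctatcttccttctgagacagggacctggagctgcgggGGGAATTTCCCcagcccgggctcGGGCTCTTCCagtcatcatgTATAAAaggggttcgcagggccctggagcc
Cxcl15: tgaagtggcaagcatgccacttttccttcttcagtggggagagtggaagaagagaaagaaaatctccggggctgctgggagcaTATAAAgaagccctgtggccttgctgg
Cxcl1: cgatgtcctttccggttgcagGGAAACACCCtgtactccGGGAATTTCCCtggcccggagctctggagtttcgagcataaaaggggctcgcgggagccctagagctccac
Cxcl2: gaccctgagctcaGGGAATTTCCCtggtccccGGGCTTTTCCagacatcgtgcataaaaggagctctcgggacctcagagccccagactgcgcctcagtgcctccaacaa

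The windows of Cxcl1, Cxcl2 and Cxcl3 each held 3 NF-kB motif matches, of which 1 pair overlaps on opposite strands. In Cxcl1 the overlapping pair covers bases 71 to 61 before the start, in Cxcl2 bases 97 to 87 and in Cxcl3 bases 73 to 63. The windows of Ppbp, Pf4 and Cxcl15 held no match to these letters. A TATA box lay at bases 30 to 25 in Ppbp, which had another at bases 8 to 3, at bases 30 to 25 in Cxcl3 and at bases 27 to 22 in Cxcl15. Among 32851 promoter windows of 250 bases before the start, 4.65% held the NF-kB motif and 12.4% held the TATA box. Of 41 members with a window, 9 held the NF-kB motif: Cxcl1, Cxcl2, Cxcl3, Cxcl10, Ccl1, Ccl9, Ccl20, Ccr3 and Ccr6. A match describes the letters only.

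The neutrophil-attracting CXC genes were lower in KO cells as a group: 5 of 6 fell, none rose, and Cxcl15 did not pass, where 3.11% of all rows fell. When only rows above the floor were tested, 5 of the 5 genes in that test fell, where 1403 of 15233 rows did. The median difference of the 6 genes was -2.90, against -0.01 over all rows. In these bulk samples, fewer cells that make a transcript and less of it per cell cannot be told apart. Over the whole set of 56, 5 genes passed, a share close to the 7.22% of all rows, and all 5 were in the neutrophil-attracting group.

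Ppbp, which encodes the precursor of the neutrophil-activating chemokine Cxcl7 and is best known from platelet granules, had a signal of 10.14 and 10.997 in KO cells and 16.36 and 16.09 in WT cells. Both KO arrays lay far below both WT arrays. Ppbp fell by 5.66 (SE 0.29, 95% interval -6.40 to -4.91, limma adjusted p = 0.0034), the lowest difference of all 30604 rows and 50.4-fold on this scale. Messages made by platelets were at background: Itga2b, Gp9, Gp5, Gp6 and Treml1, the 5 of 8 listed platelet genes that were measured, were at or below the floor on all 4 arrays.

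Cxcl5, a chemokine that mouse epithelium makes for neutrophils, had a signal of 5.88 and 6.10 in KO cells and 11.66 and 9.93 in WT cells. The groups did not overlap, and the WT arrays differed from each other more than the KO arrays did. Cxcl5 fell by 4.80 (SE 0.55, 95% interval -6.20 to -3.41, limma adjusted p = 0.0154), second only to Ppbp among all rows. The difference was -3.94 without WT replicate 1, where its rank from the most negative was 5, and -5.67 without WT replicate 2. Without KO replicate 2 the difference was -4.91 and the rank was 4. The adjusted p was 0.0918 without KO replicate 1 and 0.0619 without KO replicate 2.

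Cxcl3, a chemokine close in sequence to Cxcl1 and Cxcl2, had a signal of 7.82 and 8.34 in KO cells and 11.90 and 11.16 in WT cells. It fell by 3.44 (SE 0.30, 95% interval -4.19 to -2.69, limma adjusted p = 0.00789), with no overlap between genotypes. Without KO replicate 1 the adjusted p was 0.0562.

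Cxcl2, an early product of activated macrophages and epithelium, had a signal of 10.37 and 10.61 in KO cells and 12.99 and 12.69 in WT cells. The values formed 1 tight pair per genotype. Cxcl2 fell by 2.36 (SE 0.15, 95% interval -2.74 to -1.97, limma adjusted p = 0.00508).

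Cxcl1, a main neutrophil attractant of inflamed mouse epithelium, had a signal of 12.19 and 12.75 in KO cells and 13.95 and 13.81 in WT cells. It fell by 1.41 (SE 0.20, 95% interval -1.92 to -0.90, limma adjusted p = 0.0232), the smallest of the 5 falls, with no overlap between genotypes. The adjusted p was 0.0888 without WT replicate 1, 0.0675 without WT replicate 2 and 0.0562 without KO replicate 1.

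Cxcl15, known in mouse lung epithelium, had a signal of 3.45 and 3.39 in KO cells and 3.20 and 3.58 in WT cells, below the floor on every array. With no measured level on either side, no fold is given. When every row of the deposited table was tested, control rows and rows without a gene included, only Ppbp of the 6 passed (limma adjusted p = 0.0463), and Cxcl2, Cxcl3, Cxcl5 and Cxcl1 had adjusted p-values of 0.0516, 0.0648, 0.0885 and 0.111. That test called 0.102% of its 72688 rows.

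**Figure D1:**
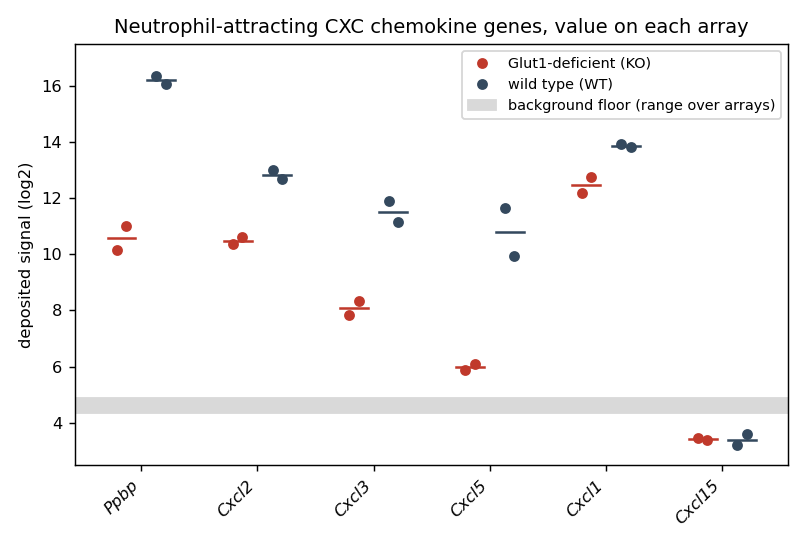
Deposited log2 signal of the 6 neutrophil-attracting CXC chemokine genes on each array. Points are arrays, short lines are means of 2, KO stands left of WT, and the grey band is the range of the background floor over arrays, 4.36 to 4.87. KO points lie below WT points for 5 genes, and Cxcl15 lies below the band in both genotypes.

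Neighbours of the 5 genes on chromosome 5 were at background, did not pass or rose. Within the 146641 bases of the cluster, 5 of 7 genes fell, while Pf4, which encodes platelet factor 4 and lies between Ppbp and Cxcl3, was at 4.00 and 3.85 in KO cells and 3.92 and 3.71 in WT cells. Pf4 was below the floor on all 4 arrays, like Cxcl15. Within 500000 bases on either side, 12 further genes had a row, and 2 passed, both higher in KO cells. Over all rows 3.11% fell and 4.11% rose.

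Epgn, which encodes the epidermal growth factor family ligand epigen and lies beyond Cxcl2, had a signal of 9.73 and 10.43 in KO cells and 6.90 and 7.31 in WT cells. It rose by 2.98 (SE 0.27, limma adjusted p = 0.00909). Rassf6, a Ras-association domain gene beyond the Cxcl5 end, had a signal of 7.31 and 7.33 in KO cells and 6.13 and 6.09 in WT cells and rose by 1.21 (SE 0.09, limma adjusted p = 0.0065). Mthfd2l, a folate enzyme gene and the first gene with a row beyond the Cxcl2 end of the cluster, had a difference of -0.49 (limma adjusted p = 0.111), and the growth factor genes Ereg and Btc had differences of 0.04 and 0.08 (adjusted p = 0.969 and 0.788). Ankrd17, on the Cxcl5 side, had a difference of -0.40 (limma adjusted p = 0.194). None of the 12 flanking genes was lower in KO cells at an adjusted p under 0.05.

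**Figure D2:**
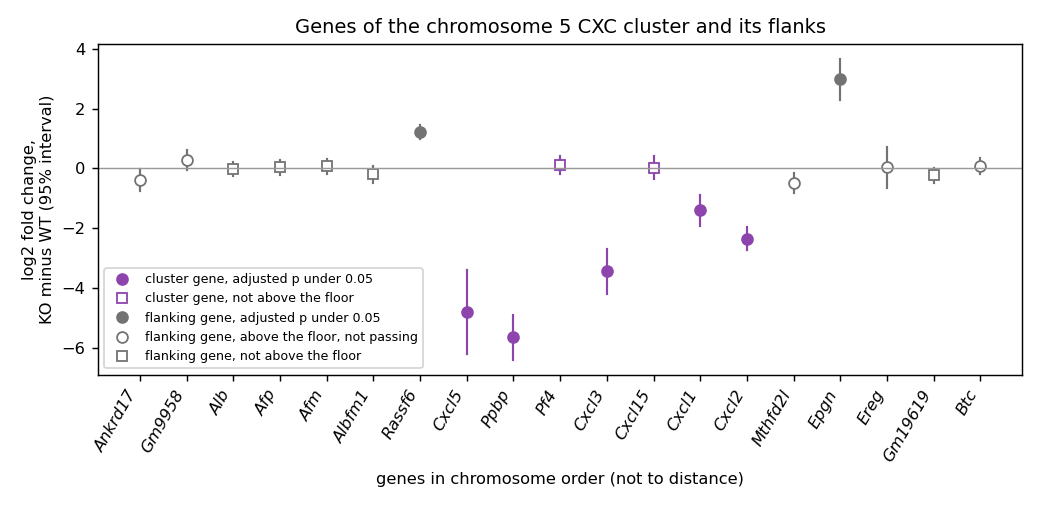
log2 differences, KO minus WT, of the 7 cluster genes (purple) and 12 flanking genes (grey) in chromosome order, not drawn to distance. Bars are 95% intervals, filled points passed the limma test, and squares mark genes that were not detected. The 5 filled purple points run from -5.66 to -1.41, and the filled flanking points, Rassf6 and Epgn, are at 1.21 and 2.98.

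Among the 32 other chemokine genes, none passed the limma test at an adjusted p under 0.05, where 7.22% of all rows did. Their median difference was -0.04 and their range -1.10 to 2.36. At an unadjusted p under 0.05 there were 11 of 32, and over all rows 6720 of 30604, or 22.0%. Of these genes 10 were detected and 22 were not. Groups did not overlap in 15 of the 32, where the share over all rows was 49.7%.

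Ccl7 and Ccl2 had the largest positive differences of the 32, with wide spread between the KO arrays, and neither passed. Ccl7, a ligand of the monocyte receptor Ccr2, had a signal of 5.98 and 7.67 in KO cells and 4.56 and 4.37 in WT cells, of which 1 WT value was above its array's floor. Both KO values lay above both WT values. Its difference was 2.36 (SE 0.53, 95% interval 1.00 to 3.72, limma adjusted p = 0.0686), and the adjusted p was 0.0401 when only rows above the floor were tested, 0.0419 when only rows at or above the median mean signal were, and 0.0286 with a replicate block. Those settings called 20.6%, 19.9% and 6.04% of all rows they tested. Without KO replicate 1 it was 3.20 with an adjusted p of 0.0253, without KO replicate 2 it was 1.51 with 0.0337, and without a WT array the adjusted p was 0.162 or 0.175.

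Ccl2, the main ligand of Ccr2, had a signal of 7.57 and 8.76 in KO cells and 7.20 and 6.35 in WT cells. The genotypes did not overlap, but the KO arrays lay nearly as far from each other as the genotype means did. The difference was 1.39 (SE 0.46, 95% interval 0.22 to 2.57, limma adjusted p = 0.162). Of 6 measured fibroblast markers, 1 rose (Dcn) and 5 did not pass. They summed to 182 and 187 in KO cells and 109 and 119 in WT cells (linear signal, 7 genes listed), with Dcn at 5.28 and 5.97 in KO cells and 4.08 and 3.82 in WT cells (at least 2.14-fold higher in KO cells, limma adjusted p = 0.025, and 0.0697 and 0.0834 without WT replicate 1 or 2). Col1a1, a defining fibroblast collagen, was above the floor on all 4 arrays but close to it. It was at 5.11 and 5.14 in KO cells and 4.87 and 4.93 in WT cells. Of the 6 genes 2 were detected and 4 were not, so the sums include background signal. On all 4 arrays, 2 of the 6 were at or below the floor. Whether fibroblasts had a part in the Ccl2 and Ccl7 values was not tested.

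Ccl27a, a keratinocyte chemokine that draws T cells through Ccr10, had a signal of 6.53 and 6.23 in KO cells and 5.64 and 5.79 in WT cells. The genotypes did not overlap, and the difference was 0.66 (SE 0.14, 95% interval 0.31 to 1.02, limma adjusted p = 0.058). It passed when only rows above the floor were tested (limma adjusted p = 0.0358) and when only rows at or above the median mean signal were (0.037). Ccl27a has near-identical copies, and 4 rows that name Ccl27a and Ccl27b together were left out of the 56. All 4 were higher in KO cells by 0.61 to 1.87, with limma adjusted p-values of 0.0516 to 0.195 in the test of every row. That test called 0.102% of its rows, and Cxcl2 also had 0.0516 in it. The genotypes did not overlap in any of the 4, where the share over all rows of 1 symbol was 49.7%. The 4 rows are not separate measurements, since they name the same copies and some share the value 8.57 on KO replicate 2. A row that names Ccl27a and Gm12394 was below the floor on every array, with a difference of 0.17 (limma adjusted p = 0.692 in the test of every row). Rows of several symbols were not part of the main test. The row with the difference of 1.87 was at 9.76 and 9.51 in KO cells and 7.74 and 7.80 in WT cells.

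Ccl20, which draws dendritic cells and T cells through Ccr6, had a signal of 5.74 and 5.66 in KO cells and 5.34 and 5.34 in WT cells, a difference of 0.36 (limma adjusted p = 0.0915). Cxcl14, a chemokine that resting epithelium expresses, had a signal of 7.05 and 6.999 in KO cells and 6.74 and 6.42 in WT cells, a difference of 0.45 (adjusted p = 0.131). Ccl25, the chemokine of thymus and gut that acts through Ccr9, had 6.59 and 6.80 in KO cells and 6.68 and 6.65 in WT cells. Its difference of 0.03 had a 95% interval of -0.25 to 0.31, and it was the detected gene of this group whose genotypes overlapped.

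Others were lower in KO cells without passing. Cx3cl1, a membrane-bound chemokine that binds Cx3cr1, had a signal of 4.84 and 5.25 in KO cells, of which 1 value was above the floor, and 6.50 and 5.79 in WT cells. Its difference was -1.10 (SE 0.27, 95% interval -1.79 to -0.41, limma adjusted p = 0.0825), and it passed when only rows above the floor were tested (0.0489) and without WT replicate 2 (0.0488). Cxcl16, which binds Cxcr6 and scavenges oxidised lipoprotein, had a signal of 13.51 and 13.47 in KO cells and 13.98 and 13.77 in WT cells, a difference of -0.38 (adjusted p = 0.124).

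Ccl9, a myeloid chemokine of mice, had a signal of 4.70 and 5.01 in KO cells and 5.58 and 5.18 in WT cells, a difference of -0.52 (limma adjusted p = 0.178). Ccl5, which draws T cells and monocytes, was at or below the floor on both KO arrays, at 4.51 and 4.37, and was 4.72 and 4.85 in WT cells. Against the floor it was at least 1.03-fold lower in KO cells (limma adjusted p = 0.143). None of these 4 genes passed.

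**Figure D3:**
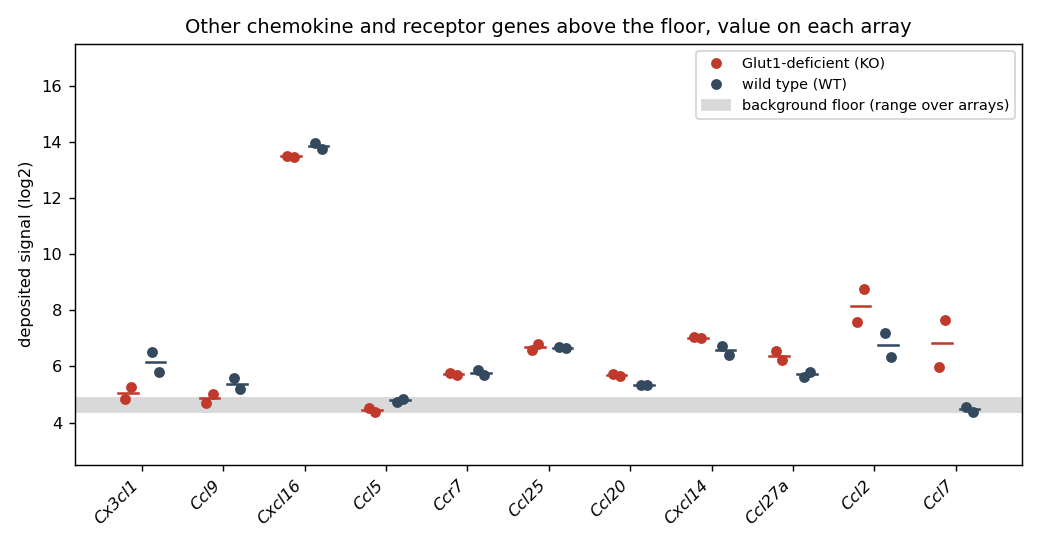
Deposited log2 signal of the 10 other chemokine genes and the 1 receptor gene that were detected, on each array, ordered by difference. Points are arrays, short lines are means of 2, KO stands left of WT, and the grey band is the range of the floor over arrays. Groups overlap for Ccl25 and Ccr7, and the KO points of Ccl7 and Ccl2 are the farthest apart.

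The remaining 22 chemokine genes ran from 3.11 to 4.92 over all arrays. Of these Cxcl10, which interferon induces for Cxcr3, had the smallest p, at 3.69 and 3.66 in KO cells and 4.33 and 4.07 in WT cells. It lay below the floor on every array, so no fold is given. The same holds for the T cell attractant Cxcl9 and for Ccl17 and Ccl22, the ligands of Ccr4. Ccl19 and Ccl8 were below the floor too, as were Cxcl11 and Ccl19-ps1, which RefSeq annotates as transcribed pseudogenes.

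Of the 18 receptor genes, 1 was detected. Ccr7, which guides dendritic cells and T cells to lymph nodes, had a signal of 5.75 and 5.71 in KO cells and 5.86 and 5.70 in WT cells, and its difference of -0.05 had a 95% interval of -0.32 to 0.21 (limma adjusted p = 0.869). None of the 18 passed the limma test, where 7.22% of all rows did. At an unadjusted p under 0.05 there was 1 of 18, where 22.0% of all rows had one. It was Ccr3, at 3.89 and 3.81 in KO cells and 3.49 and 3.29 in WT cells. No setting tried called a receptor gene, but the settings limited to rows above the floor or at or above the median mean tested only 1 receptor gene. Cxcr2, the receptor of the neutrophil attractants, was at 4.27 and 4.29 in KO cells and 4.15 and 4.27 in WT cells, and Cxcr1 at 3.60 and 3.56 in KO cells and 3.41 and 3.53 in WT cells. Both were below the floor on every array, so a difference could not be measured.

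The other receptor rows ran from 2.59 to 4.73. Atypical receptors bind chemokines without signalling to migration. Of 5 listed, the 3 with a row of exactly 1 symbol were also at background, and 0 of 3 passed. Among them Ackr1 was at 3.00 and 3.21 in KO cells and 3.21 and 3.20 in WT cells. Ackr3, also an atypical receptor, has a row that carries the symbols Ackr3 and Cxcr7, and so is outside the 56. Its values were 4.41 and 4.78 in KO cells and 5.25 and 5.18 in WT cells (difference -0.62, limma adjusted p = 0.232 in the test of every row). This row was above the floor on both WT arrays, and the KO arrays lay on either side of it. Over all 56 members, the groups did not overlap for 26, where the share over all rows was 49.7%.

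**Figure D4:**
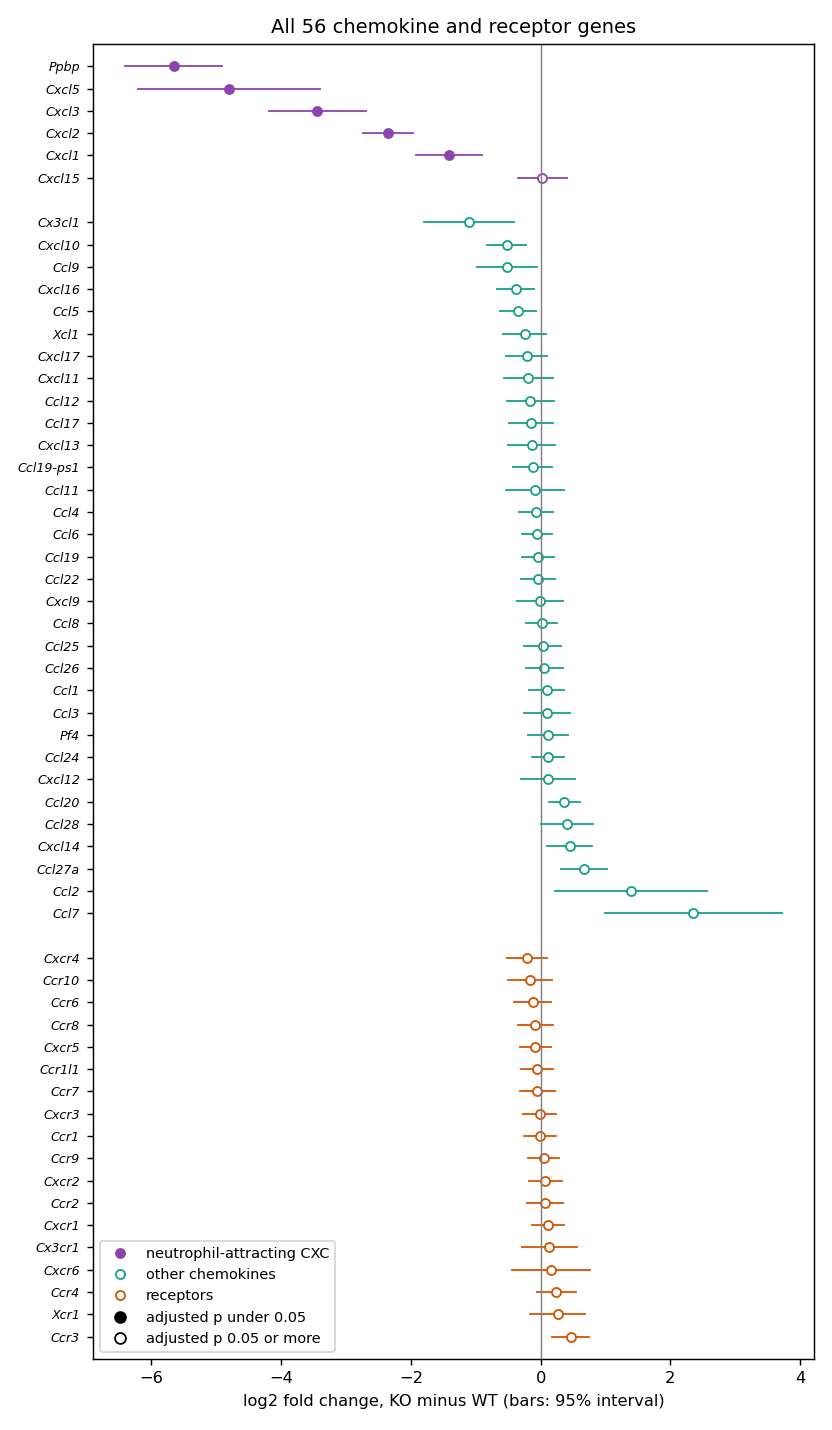
log2 differences, KO minus WT, of all 56 genes with 95% intervals, in the order neutrophil-attracting, other and receptor, each sorted by difference. Filled points passed the limma test. The filled points are the 5 neutrophil-attracting genes, and the other points with a negative difference reach -1.10.

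Genes around these chemokines were read from 7 lists: receptor signalling, cytokine input, NF-kB and C/EBP regulators, message stability, other keratinocyte products, enzymes and heparan sulfate carriers, and the atypical receptors already given. Their counts stand beside the 3.11% of all rows that fell and the 4.11% that rose. The lists differ from all rows in detection. Of all rows 15233 of 30604 were detected, while every measured gene of the NF-kB and C/EBP list and the stability list was. When only rows above the floor were tested, 20.6% of them passed. Receptor signalling had 22 of 26 listed genes measured: 0 rose, 3 fell and 19 did not pass, with a median of -0.06. Rgs16, which shortens G protein signals, had a signal of 11.92 and 12.52 in KO cells and 14.52 and 14.75 in WT cells and fell by 2.41 (SE 0.22, limma adjusted p = 0.00935). The small GTPase gene Rac1 fell by 0.59 (adjusted p = 0.029) and the receptor kinase gene Grk5 by 0.52 (adjusted p = 0.0402).

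Among 27 of 30 cytokine input genes measured, 4 rose, 3 fell and 20 did not pass, with a median of 0.05. Tnf, the ligand of the tumour necrosis factor pathway, had a signal of 10.35 and 11.07 in KO cells and 12.97 and 12.74 in WT cells and fell by 2.15 (SE 0.25, limma adjusted p = 0.0163). Il1a, the interleukin-1 alpha gene, was at 16.77 and 17.05 in KO cells and 17.90 and 17.81 in WT cells and fell by 0.94 (adjusted p = 0.0211). Il1rn, the interleukin-1 receptor antagonist gene, rose by 1.57 (limma adjusted p = 0.0234). The receptor genes Il17rc and Tnfrsf1a rose by 0.93 (limma adjusted p = 0.0385) and 0.50 (limma adjusted p = 0.0464). Neither of these receptor genes passed without WT replicate 1 or without WT replicate 2. Il1f9, which encodes interleukin-36 gamma, rose by 2.52 (limma adjusted p = 0.00593), with 8.13 and 8.54 in KO cells and 5.96 and 5.67 in WT cells. Without WT replicate 1 the adjusted p was 0.059 for Tnf, 0.0962 for Il1a and 0.0735 for Il1rn. Without WT replicate 2 it was 0.0744 for Il1a and 0.0785 for Il1rn, and without KO replicate 1 it was 0.0773 for Il1a.

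The NF-kB and C/EBP list, with 17 of 19 genes measured, held 1 that rose, 4 that fell and 12 that did not pass, with a median of -0.17. Tnfaip3, which encodes the NF-kB inhibitor A20, was at 9.19 and 9.37 in KO cells and 11.53 and 11.62 in WT cells and fell by 2.30 (SE 0.11, limma adjusted p = 0.00294). Tnip1, a partner of A20, fell by 1.13 (adjusted p = 0.0194), Bcl3, a nuclear regulator of NF-kB, by 0.96 (0.0173), and the subunit gene Nfkb2 by 0.61 (0.0277). Cebpa rose by 0.72 (limma adjusted p = 0.0335). Nfkbia, the inhibitor I-kB alpha, had 13.32 and 13.34 in KO cells and 13.04 and 13.11 in WT cells (difference 0.25, adjusted p = 0.208). Without WT replicate 1, WT replicate 2 or KO replicate 1, the limma adjusted p was 0.0838, 0.0554 or 0.0763 for Tnip1 and 0.0789, 0.0741 or 0.0524 for Bcl3.

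Of 13 message-stability genes, 0 rose, 2 fell and 11 did not pass, with a median of -0.28. Zfp36l1, which binds AU-rich messages for decay, fell by 1.61 (limma adjusted p = 0.00523), and Zc3h12a, the RNase regnase-1 that cleaves inflammatory messages, by 1.35 (limma adjusted p = 0.0167). Zfp36, tristetraprolin, which destabilises chemokine messages, had a difference of 0.85 (adjusted p = 0.0978). The adjusted p of Zc3h12a was 0.0905 without KO replicate 1 and 0.0557 without KO replicate 2.

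Of the other keratinocyte products of interleukin-1 and interleukin-17, 17 of 18 were measured, and 1 rose, 5 fell and 11 did not pass, with a median of -0.11. Il24, a cytokine of the interleukin-10 family, had 6.21 and 7.25 in KO cells and 11.30 and 11.47 in WT cells and fell by 4.66 (SE 0.34, limma adjusted p = 0.00605). The colony-stimulating factor genes moved the same way. Csf2, which acts on granulocytes and macrophages, fell by 3.27 (limma adjusted p = 0.00508). Csf1, which acts on macrophages, fell by 2.66 (adjusted p = 0.0182), and Csf3, which drives neutrophil production, fell by 2.07 (adjusted p = 0.0167). Lif fell by 1.93 (limma adjusted p = 0.00317), and Lcn2, an iron-binding neutrophil-associated protein, rose by 0.58 (0.0338). The Lcn2 rise did not pass with a replicate block, nor without WT replicate 1, KO replicate 1 or KO replicate 2. The adjusted p of Csf3 was 0.0892 without KO replicate 1 and 0.0677 without KO replicate 2, and that of Csf1 was 0.064 without WT replicate 1.

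Among 21 of 22 enzymes and heparan sulfate carriers measured, 2 rose, 4 fell and 15 did not pass, with a median of -0.02. Mmp9, a gelatinase that can trim chemokines, had 8.75 and 9.64 in KO cells and 14.18 and 13.42 in WT cells and fell by 4.60 (SE 0.37, limma adjusted p = 0.00754). Mmp3, stromelysin, had 14.07 and 14.71 in KO cells and 10.57 and 10.58 in WT cells and rose by 3.82 (SE 0.22, limma adjusted p = 0.00424). Mmp14, a membrane protease, fell by 1.85 (limma adjusted p = 0.00756), Ext1, which lengthens heparan sulfate chains, by 1.14 (0.0101), and Mmp13 rose by 1.86 (0.0274). The adjusted p of Ext1 was 0.0515 without WT replicate 1 and 0.0626 without KO replicate 1, and that of Mmp13 was 0.0744, 0.0659 and 0.0717 without WT replicate 2, KO replicate 1 and KO replicate 2. The list medians ran from -0.28 to 0.05, against -0.01 over all rows. With 1 array left out, 1 receptor signalling gene passed, 1 to 5 cytokine input genes, 1 to 3 NF-kB and C/EBP genes, 1 to 2 stability genes, 4 to 6 other products and 4 enzymes and carriers, where 1.03% to 3.97% of all rows passed. Rac1, Grk5, Nfkb2, Cebpa and Traf2, a receptor adaptor gene of the cytokine input list that fell by 0.78 with all arrays, did not pass whichever array was left out. With every row of the table tested, Tnfaip3, Lif and Mmp3 were the named genes of these lists that passed (limma adjusted p = 0.0463, 0.0474 and 0.0493).

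**Figure D5:**
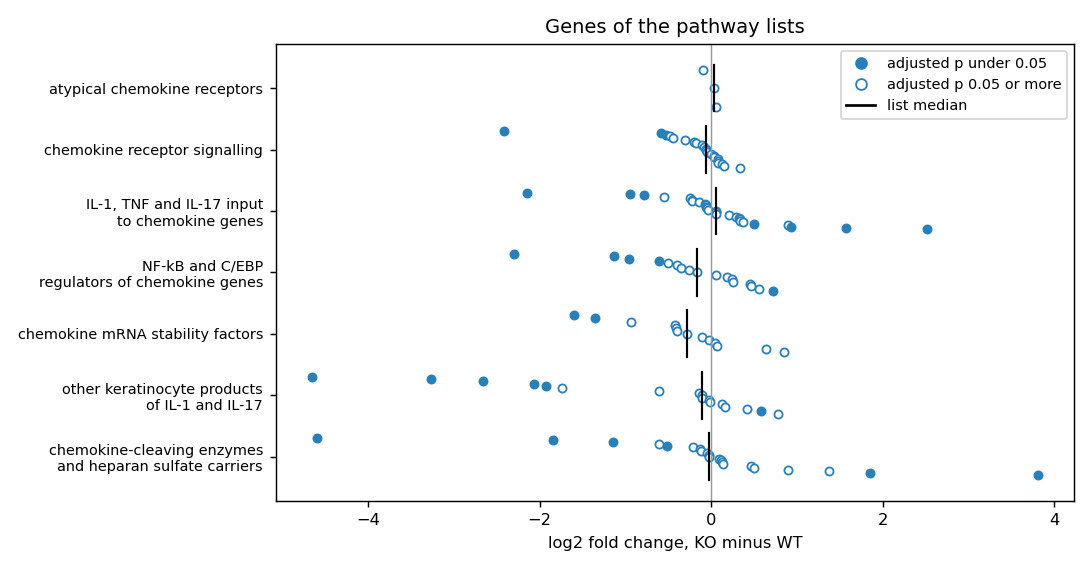
log2 differences, KO minus WT, of the measured genes of 7 lists, 1 point per gene, filled where the limma adjusted p was under 0.05, with the list median as a line. Medians run from -0.28 to 0.05, while single genes reach -4.66 (Il24) and 3.82 (Mmp3).

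The keratinocyte label held: all 9 keratinocyte markers, Krt5 and Krt14 among them, were above the floor on all 4 arrays. Of these Dsg3, a desmosome gene, rose by 0.92 (limma adjusted p = 0.0157), Col17a1, a hemidesmosome gene, fell by 0.86 (limma adjusted p = 0.0181), and 7 did not pass, with Krt5 at -0.51 and Krt14 at -0.43. Neutrophil markers were at background. Of 8 measured neutrophil markers none was above the floor on both arrays of either genotype, Mpo, Elane, Ngp and Csf3r among the 7 at or below it on all 4 arrays, and their summed signal was 99.6 to 103 in KO cells and 97.3 to 104 in WT cells. Of 8 macrophage and monocyte markers, 7 were at or below it on all 4, and the list's sum of 719 to 1267 in KO cells and 312 to 324 in WT cells was carried by Cd68 (9.30 and 10.20 in KO cells, 7.76 and 7.85 in WT cells, limma adjusted p = 0.0267). Melanocyte markers summed to 5278 and 2211 in KO cells and 1469 and 1026 in WT cells. This sum was mostly Tyrp1 (12.11 and 10.80 in KO cells, 10.25 and 9.67 in WT cells, limma adjusted p = 0.136). Of the 6 melanocyte markers, Pmel was higher by 1.04 (limma adjusted p = 0.0341) and 5 did not pass. The endothelial marker Kdr was higher by 3.60 (limma adjusted p = 0.00508), while 4 of 6 endothelial markers were at or below the floor on all arrays. Of these marker calls that of Kdr passed whichever array was left out, while the adjusted p reached 0.122 for Pmel without WT replicate 2, 0.0913 for Cd68 and 0.0811 for Dsg3 without WT replicate 1, and 0.0883 for Col17a1 without KO replicate 1. Whether cells other than keratinocytes had a part in the chemokine values was not tested.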

How the data were processed

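RNA of 4 samples was measured on single-channel arrays. The deposited values are log2 signals per gene, which the labels name SST-RMA. Per the submitters' processing notes, the authors used Affymetrix Expression Console and RMA, with no version stated. RMA gives all arrays a like distribution, which hides a change common to most genes. SST changes the scale, and values reached 19.7, so a fold here need not equal a plain RMA fold. With 4 arrays, precision is limited by their number.

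Of 72688 rows, 30604 had exactly 1 symbol in a platform table, 2146 had several and 39938 none. A RefSeq gene table of GRCm38.p6 matched 22818 rows, updated 827 symbols and gave the positions, and the row with the highest mean stood for a gene. limma 3.58.1 in R 4.3.3 (lmFit, eBayes, two-sided, Benjamini-Hochberg over the 30604 rows, threshold 0.05) compared 2 KO with 2 WT arrays without a replicate block. It was tested on simulated data. The floor was the 95th percentile of 23 background control rows on each array. A genotype with both arrays no higher than its floor gives only a bound on the fold. Named genes were Slc2a1, every member that passed or was detected, the 6 neutrophil-attracting genes, up to 5 listed genes of smallest p that passed per list (2 where none did) and detected or passing markers. Other genes were named after their values were seen. The members and lists were chosen with earlier results of these data known. Other settings tried were 2 normalizations, 3 choices of tested rows, 2 trended variance fits, a block on replicate number, and each array left out.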

Additional observations from a re-analysis of the deposited data

How the results depend on the processing

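The same 5 members passed under quantile normalization, median centring and both trended variance fits. With every row of the table tested, 1 member passed (1 of the neutrophil-attracting group), as did 60 of the 30604 rows with a symbol. That test also refits the variance, and the SE was 0.32 for Ppbp, against 0.29 with the 30604 rows. The parts of the adjustment and the variance were not separated. Testing only rows above the floor called 8 members, 3 of them other chemokines, where 20.6% of all rows so tested passed. Testing rows at or above the median mean called 2 other chemokines, where 19.9% of rows passed. Each tested 10 other chemokines. With replicate number as a block, 1 other chemokine (Ccl7) passed and 6 members in all, where 6.04% of rows did. The block is not a true pairing, since plates were joined at random and deviations of same-numbered arrays correlated at -0.23. Leaving out 1 array gave 3 to 5 members, 2 to 4 neutrophil-attracting genes, 0 to 1 other chemokines and 314 to 1214 rows (1.03% to 3.97%), and the lowest of these member counts came without KO replicate 1. The log2 difference of Ccl25 was -0.012 under quantile normalization. Without 1 array, the difference ran from -0.074 to 0.13 for Ccl25, -0.16 to 0.22 for Cxcl15, -0.13 to 0.030 for Ccr7 and -0.20 to 0.0055 for Ackr1, and the cause was not tested. The difference ran from -6.08 to -5.23 for Ppbp, -5.67 to -3.94 for Cxcl5, -3.81 to -3.07 for Cxcl3, -2.51 to -2.20 for Cxcl2 and -1.69 to -1.13 for Cxcl1. Over 63 named genes and 749 values, 624 kept direction and side of the threshold, 99 lost the threshold, 20 gained it and 6 changed sign. Genes at the floor have no order here, and 40 of the 56 members were not detected.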
